A study of Cucumis sativus with 6 samples.

Results

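Membrane transporters move sugars, nitrogen compounds, ions and metabolites between cells and between the compartments of a cell. The 58 genes described here were taken from a deposited table of 1589 genes that differ between mutant and wild type cucumber (Cucumis sativus) buds. They are the rows whose Swiss-Prot protein description contains transporter, DETOXIFICATION, SWEET, NRT1, potassium channel, antiporter or H+-ATPase. Of 60 such rows, 2 were left out because they name auxin, and no row was lost to the words aquaporin, calcium or cyclic nucleotide-gated. The description of 56 genes comes from an Arabidopsis protein and that of the other 2 from rice, so each name is a similarity and not an established identity. The genes were grouped by the substrate in the description: 14 for nitrogen compounds, 9 of the ABC family, 8 for potassium, sodium and protons, 8 for metals, 6 for sugars and polyols, 5 of the MATE family, 5 for phosphate, sulfate or silicon, and 3 others.

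RNA came from female buds of Cshec2-/- and wild type plants, 7 days before anthesis, with 3 libraries per genotype. Each library was prepared from 1 ug of total RNA. The mutant is named for CsHEC2, which the series title places in the formation of the warts on cucumber fruit and in cytokinin biosynthesis. The design text calls the 3 libraries of a genotype biological replicates. It does not say how many plants a library holds, nor which allele or line was used, so p-values measure the spread between these libraries.

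Carriers such as amino acid permeases, the nitrate and peptide transporters of the NRT1/PTR family and polyol symporters couple the substrate to a proton gradient. ABC proteins are driven by ATP, and MATE (DETOXIFICATION) proteins exchange organic compounds and toxins for protons or sodium. In a growing bud, which imports its carbon and nitrogen through the phloem, such proteins act at the plasma membrane and at the tonoplast, the membrane around the vacuole.

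All 58 genes had been selected by the authors for a difference between these same libraries, so a count of genes that pass a test is not independent evidence that transporters changed. The deposited values are normalised expression in an unnamed unit, with unknown read depth and unknown treatment of gene length. Levels are therefore compared between libraries and never between genes. Summed over the table, the values lay between 23592 and 24173 in mutant libraries and between 41126 and 59342 in wild type libraries. Dividing each library by its median ratio to the geometric mean over the table (median-of-ratios scaling) moved the median log2 change of all genes by 0.74. It was -0.77 as deposited and -0.02 after scaling. Because most listed genes are lower, this scaling raises every log2 change. By construction it takes calls from lower genes and enlarges the rise of higher ones. The table held 293 higher genes before it and 293 after, so a rise that remains after scaling is no added support. The scaled result is given beside each substrate group, and for the lists of other genes beside them or in the closing section. Genes found by tissue words in their descriptions are not established markers of a tissue. Like every gene of the table, they had been selected for differing. Their sums are given as deposited, and the sums over the whole table were also lower in the mutant. The 6 floral organ genes summed to between 532.6 and 571.1 in mutant and between 332.7 and 366.2 in wild type libraries. Of them 3 rose (YABBY 1, YABBY 5 and CRABS CLAW, a carpel regulator) and 3 fell (the MADS-box genes SVP, SOC1 and CMB1), and YABBY 1 and CRABS CLAW make up most of the sum. The 10 epidermis and trichome genes summed to between 189.3 and 207.7 in the mutant and between 296.5 and 416.5 in wild type. Of them 2 rose (GLABRA 2 and trichome birefringence-like 2) and 8 fell, and protodermal factor 1 makes up most of the sum. Most of the 10 are described as trichome birefringence or a like protein, matched by the word trichome alone. For 18 phloem and lectin genes the range was 151.2 to 163.4 in the mutant and 170.0 to 260.4 in wild type, with 6 genes higher, 10 lower and 2 not passing. Most of the 18 are described as lectin receptor kinases, matched by the word lectin alone. The sum of the 18 rests mostly on the lectin genes Csa7G056500 and Csa1G542510, whereas all 3 genes described as SIEVE ELEMENT OCCLUSION B, a phloem protein, rose. For 3 green tissue genes the range was 109.5 to 124.7 in mutant libraries and 165.1 to 213.1 in wild type libraries. No row of the table matched the pollen and anther markers, 0 genes. In bulk RNA of buds, fewer cells of a type and less RNA per cell cannot be told apart, and the part of tissue composition in the results below was not tested.

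Of the 58 transporter genes, the authors' deposited table lists 14 as higher in Cshec2-/- buds and 44 as lower. Over all genes of that table, 18.4% stand as higher there and 81.6% as lower. Mutant and wild type were compared again with limma on log2(value + 1), with p-values adjusted by the Benjamini-Hochberg method over all 1589 genes. As these genes had been selected for differing in the same libraries, the adjusted p does not control a false discovery rate over all genes measured. The adjustment changed high p-values little: for Csa3G835810 the p of 0.046 by limma became 0.0497. At an adjusted p of 0.05, 14 transporter genes rose (24.1% of them, against 18.4% of all genes) and 41 fell (70.7%, against 74.3% of all genes). The other 3 did not pass. Neither share was tested against that of the table. After median-of-ratios scaling, which raises every change, the same 14 genes were higher and 8 were lower, against 18.4% and 14.2% of all genes. All 8 were among the 41. The median log2 change of the transporters was -0.77, equal to that of the whole table, and -0.05 after scaling.

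A fall of at least 1 on the log2 scale was called in 19 transporters (32.8%, against 32.0% of all genes), and a rise of that size in 1 (1.72%, against 3.08%). In 56 of the 58 genes, or 96.6%, the mutant values lay wholly apart from the wild type values. The share was 94.0% over the table, whose genes had been selected for differing. Leaving out any of the 3 mutant libraries left 27 lower transporters, and leaving out wild type library 2 left 28. The 14 higher genes became 10 without mutant library 3 and 13 or 14 without any other library.

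**Figure D1:**
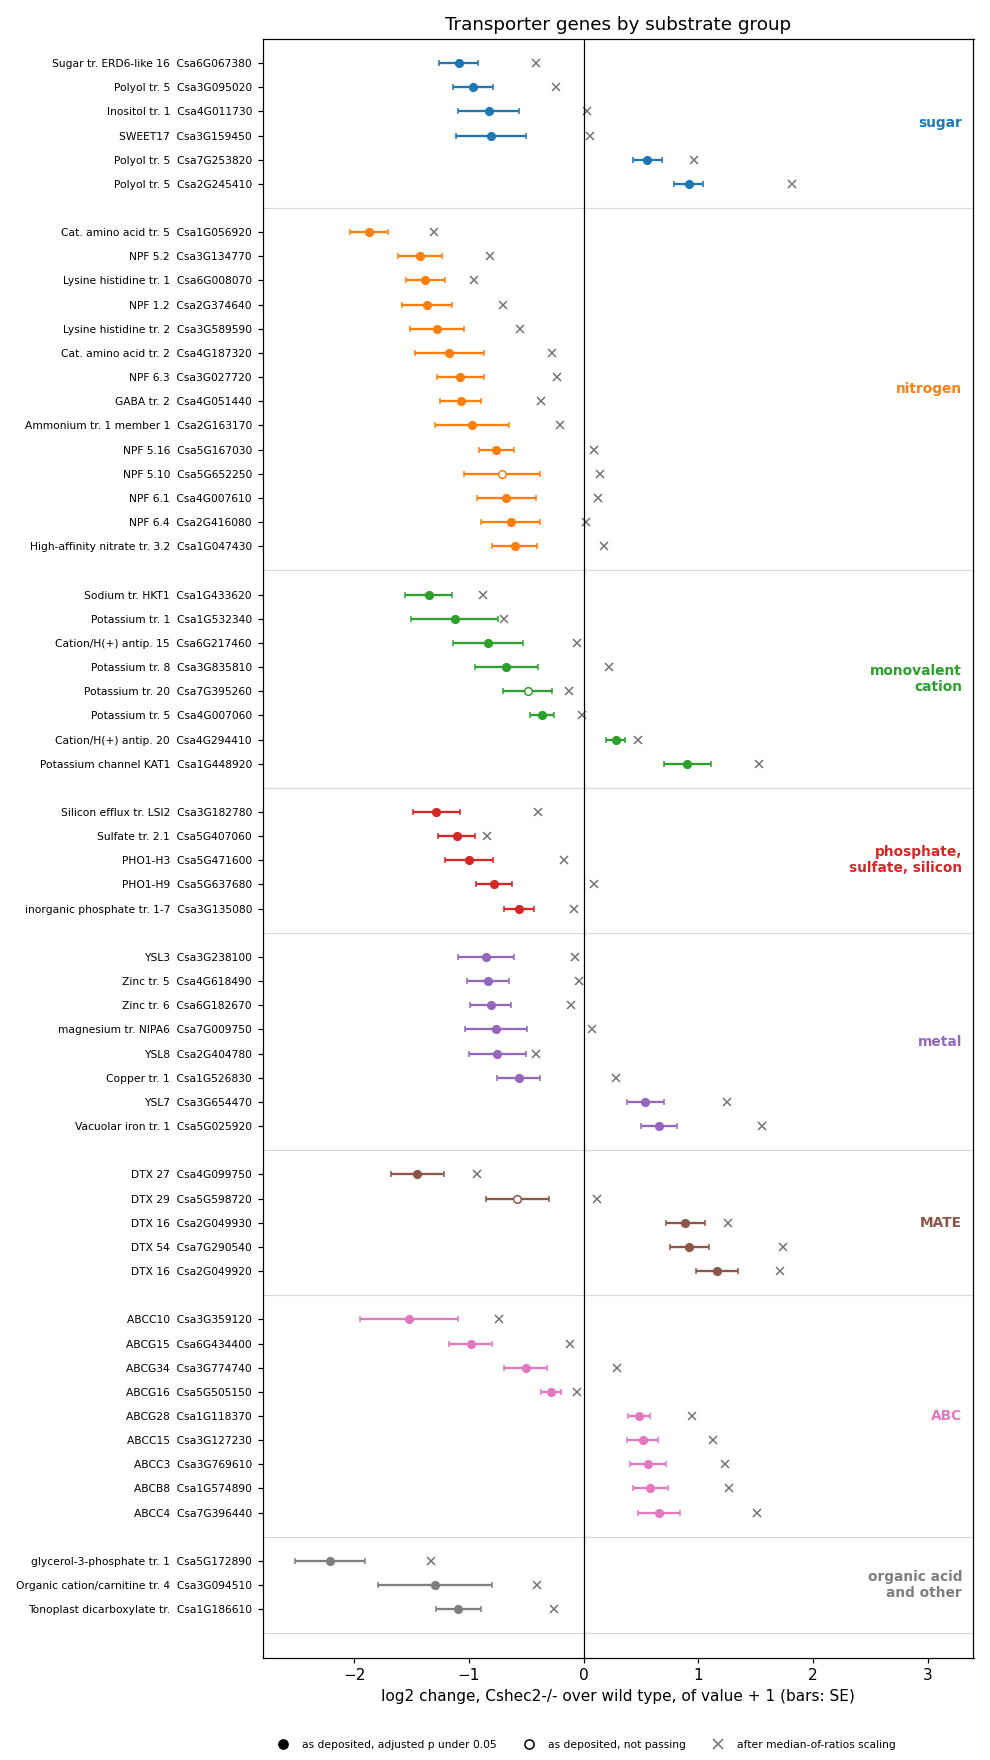
Log2 change of each of the 58 transporter genes, mutant over wild type, with its limma SE, in panels by substrate. Filled circles passed an adjusted p of 0.05 and open circles did not; crosses give the log2 change after median-of-ratios scaling. Scaling moves every gene to the right. All 14 nitrogen genes lie left of 0 as deposited, and 5 of their crosses lie right of it. The 5 rising ABC genes and 3 rising MATE genes lie right of 0 as deposited, and so also after scaling. In gene names, tr. stands for transporter, antip. for antiporter, NPF for the NRT1/PTR family and DTX for DETOXIFICATION.

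Nitrogen transporters formed the largest group. Of the 14 genes, none was higher, 13 fell and 1 did not pass, where 18.4% of all genes rose and 74.3% fell. The log2 changes lay between -1.87 and -0.60, with a median of -1.08, against -0.77 for the whole table. After scaling, 4 were lower, 5 of the 14 changes turned positive, and the median was -0.25. The members were 5 amino acid transporters, 7 of the NRT1/PTR family, an ammonium transporter and an accessory protein of nitrate transport.

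All 5 amino acid transporter genes of the group fell by more than 1 on the log2 scale, where 32.0% of all genes fell by at least 1. Membership rests on words in the description, and genes described as amino acid permeases lie outside the group. Their falls were smaller: Csa4G361780 (amino acid permease 3) did not pass, at -0.67 (adjusted p = 0.0542 by limma). Csa5G610480 (amino-acid permease BAT1) was lower, at -0.62 (adjusted p = 0.0096 by limma). Csa1G056920 is described as cationic amino acid transporter 5, a plasma membrane importer of basic amino acids in Arabidopsis. It measured 0.645, 0.538 and 0.632 in mutant libraries 1 to 3, against 4.90, 5.99 and 3.91 in wild type libraries 1 to 3. Every wild type library lay far above every mutant library. The wild type mean was 8.15-fold the mutant mean, and the log2 change was -1.87 (SE 0.17, adjusted p = 0.000753 by limma). The authors' deposited table puts the fall at a log2 fold change of -2.70.

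The lysine histidine transporters of Arabidopsis import a broad range of amino acids despite their name. Csa6G008070, described as lysine histidine transporter 1, measured 0.242, 0.306 and 0.241 in the mutant and 1.57, 2.47 and 2.99 in wild type. The groups were well separated, with wild type library 1 the lowest of its group. The log2 change was -1.38 (SE 0.17, adjusted p = 0.00134 by limma), and the wild type mean was 8.90-fold the mutant mean. Csa3G589590, described as lysine histidine transporter 2, measured 1.70, 2.08 and 2.52 in mutant libraries and 5.44, 5.37 and 9.18 in wild type libraries. It fell by 1.28 (SE 0.23, adjusted p = 0.00431 by limma), but its change of -0.55 after scaling did not pass (adjusted p = 0.0666).

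Of the remaining amino acid transporters, Csa4G187320 is described as cationic amino acid transporter 2, a vacuolar protein. It was even in the mutant, at 18.8, 19.4 and 18.2, and uneven in wild type, at 27.5, 45.3 and 66.4. Csa4G051440, described as GABA transporter 2, measured 1.61, 2.12 and 2.12 in the mutant and 6.16, 4.37 and 5.19 in wild type. The groups overlapped in neither gene. Their log2 changes were -1.17 (adjusted p = 0.0116 by limma) and -1.07 (adjusted p = 0.00311 by limma).

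The NRT1/PTR family carries nitrate, peptides and several plant hormones. Of its 7 genes, 6 fell (85.7%, against 74.3% of all genes) and 1 did not pass. After scaling 2 of the 7 were lower, and the median log2 change of the family was 0.02. Csa3G134770, described as NPF5.2, a peptide transporter in Arabidopsis, measured 0.867, 1.14 and 0.959 in the mutant and 5.60, 4.38 and 3.28 in wild type. Csa2G374640, described as NPF1.2, a low-affinity nitrate transporter in Arabidopsis, measured 1.03, 1.32 and 2.05 in mutant libraries and 6.30, 4.13 and 5.57 in wild type libraries. In both genes the lowest wild type library was above the highest mutant library. They fell by 1.43 (SE 0.19, adjusted p = 0.00156 by limma) and by 1.37 (SE 0.22, adjusted p = 0.00293 by limma), and both passed after scaling, at -0.82 and -0.70, NPF1.2 narrowly (adjusted p = 0.0494). Csa3G027720 is described as NPF6.3, the dual-affinity nitrate transporter and nitrate sensor of Arabidopsis, and was picked for that role. It measured 5.83, 7.53 and 6.54 in the mutant and 11.7, 15.4 and 18.7 in wild type, with no overlap. Its log2 change was -1.08 (SE 0.21, adjusted p = 0.00483 by limma), and -0.23 after scaling (adjusted p = 0.38).

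The other 4 genes of the NRT1/PTR family had smaller changes, between -0.76 and -0.64, and after scaling all 4 turned positive, to values between 0.02 and 0.14. Csa5G167030, described as NPF5.16, was even within each genotype, at 7.06, 9.20 and 8.77 in the mutant and 14.3, 14.8 and 15.2 in wild type. Csa4G007610 (NPF6.1) and Csa2G416080 (NPF6.4) passed with all libraries, at adjusted p of 0.0378 and 0.0475. Leaving out 1 library at a time gave adjusted p between 0.00386 and 0.0985 for NPF6.1, which passed only without wild type library 3. For NPF6.4 the range was 0.018 to 0.136, and it passed only without wild type library 1. Csa5G652250 (NPF5.10) did not pass (log2 change -0.71, adjusted p = 0.071 by limma). Its wild type values of 9.05, 14.6 and 24.8 reached down into the mutant values of 9.10, 8.36 and 8.77. Without wild type library 1 it passed, at -1.04 (adjusted p between 0.00562 and 0.15 over the fits that left out 1 library).

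Uptake of inorganic nitrogen was represented by a pair of further genes. Csa2G163170, described as ammonium transporter 1 member 1, a high-affinity ammonium importer, measured 2.93, 3.62 and 2.91 in the mutant and 5.29, 5.31 and 12.6 in wild type. Wild type library 3 stood above the rest of its group. The log2 change of -0.97 (SE 0.32, adjusted p = 0.0244 by limma) failed without any 1 of the 3 mutant libraries, with adjusted p between 0.0122 and 0.0698 over the fits that left out 1 library. Csa1G047430 is described as the accessory protein NRT3.2 (high-affinity nitrate transporter 3.2), which partners nitrate importers of the NRT2 family. It fell by 0.60 on the log2 scale (adjusted p = 0.0239 by limma), which turned to 0.18 after scaling, and it failed without mutant library 2 or 3 or wild type library 2 (adjusted p between 0.0177 and 0.0867 over the fits that left out 1 library).

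**Figure D2:**
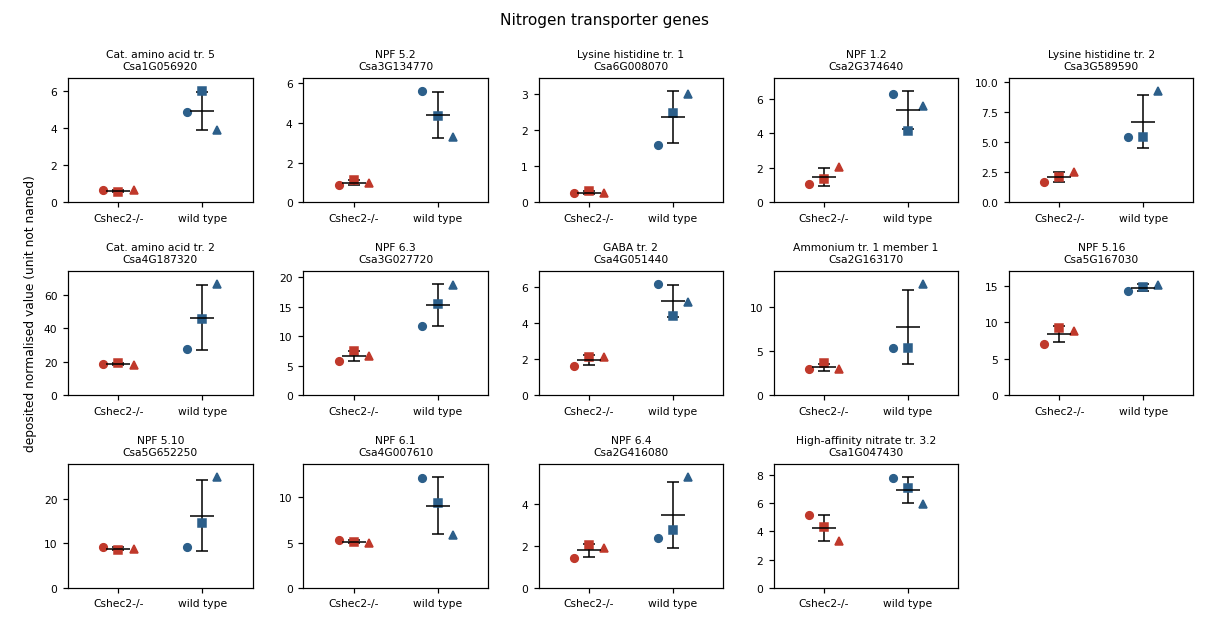
Deposited normalised value of the 14 nitrogen transporter genes in each library, mutant left and wild type right; circles, squares and triangles are libraries 1, 2 and 3, and bars give the mean and SD of 3 libraries. The mutant points lie below the wild type points in 13 panels and overlap them in NPF5.10, whose wild type libraries span 9.05 to 24.8.

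Sugar and polyol transporters went both ways. Of 6 genes, 2 rose and 4 fell, where 18.4% of all genes rose and 74.3% fell. The median log2 change was -0.82, and after scaling 2 were higher, none was lower and the median was 0.04. The 3 genes that share the description polyol transporter 5, a proton symporter of sugar alcohols and monosaccharides in Arabidopsis, differed in direction. Csa2G245410 measured 59.6, 54.5 and 52.9 in the mutant and 28.9, 28.6 and 29.5 in wild type. Libraries within a genotype were close, and the groups lay wide apart. It rose by 0.92 (SE 0.13, adjusted p = 0.00193 by limma) on the log2 scale, and the mutant mean was 1.92-fold the wild type mean. Csa7G253820 also rose, to 0.940, 1.43 and 1.16 in mutant libraries, against 0.413, 0.370 and 0.649 in wild type (log2 change 0.56, SE 0.13, adjusted p = 0.008 by limma). Csa3G095020 fell, to 2.25, 1.97 and 3.01 in the mutant, against 5.74, 4.98 and 6.12 in wild type (log2 change -0.96, SE 0.18, adjusted p = 0.00432 by limma). None of the 3 had overlapping groups. Their sequences were not compared, and how reads that match more than 1 gene were divided is not given in the sources used here. After scaling, which enlarges rises by construction, both rising genes passed, and the third was at -0.24 (adjusted p = 0.364).

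The other 3 sugar transporters are described as proteins that in Arabidopsis act at the tonoplast or belong to families found there. Csa6G067380, described as sugar transporter ERD6-like 16, measured 1.36, 1.92 and 1.65 in the mutant and 4.42, 3.98 and 5.53 in wild type. It fell by 1.09 (SE 0.17, adjusted p = 0.00276 by limma), with no overlap. Csa4G011730, described as inositol transporter 1, measured 7.90, 9.08 and 8.50 in mutant libraries and 10.7, 16.3 and 22.6 in wild type libraries. Csa3G159450, described as SWEET17, a fructose facilitator of the tonoplast in Arabidopsis, measured 7.39, 13.3 and 13.3 in the mutant and 29.0, 17.1 and 15.9 in wild type. For the inositol transporter the highest wild type value was in library 3, and for SWEET17 it was in library 1. Their changes of -0.83 (adjusted p = 0.0223 by limma) and -0.81 (adjusted p = 0.0392 by limma) turned to 0.03 and 0.06 after scaling. Neither passed without any 1 of the 3 mutant libraries or without wild type library 2, and SWEET17 also failed without wild type library 1. Over the fits that left out 1 library, adjusted p lay between 0.00253 and 0.0676 for the inositol transporter and between 0.0301 and 0.119 for SWEET17.

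Among transporters of potassium, sodium and protons, 2 of 8 rose, 5 fell and 1 did not pass, where 18.4% of all genes rose and 74.3% fell. The median log2 change was -0.58. After scaling 2 were higher and 1 was lower, and the median was -0.03. The 2 rising genes are described as proteins known from Arabidopsis guard cells, the paired cells that open and close a stoma. Csa1G448920, described as the inward potassium channel KAT1, measured 3.25, 3.66 and 3.20 in the mutant and 1.27, 0.833 and 2.04 in wild type. All mutant values were above all wild type values. It rose 2.44-fold, a log2 change of 0.91 (SE 0.20, adjusted p = 0.00779 by limma). Csa4G294410, described as cation/H(+) antiporter 20, was at low values of 0.304, 0.402 and 0.436 in mutant libraries and 0.170, 0.0610 and 0.179 in wild type libraries. Its log2 change of 0.28 (SE 0.08, adjusted p = 0.0165 by limma), which the added 1 makes small, failed without mutant library 3 or wild type library 2 (adjusted p between 0.0218 and 0.0566 over the fits that left out 1 library).

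The lower genes of the group were led by Csa1G433620, described as HKT1, which in Arabidopsis retrieves sodium from the xylem sap. It measured 0.229, 0.432 and 0.801 in the mutant and 3.72, 2.45 and 2.23 in wild type. The groups did not overlap, and the wild type mean was 5.75-fold the mutant mean (log2 change -1.35, SE 0.21, adjusted p = 0.00254 by limma). It was the 1 gene of the group that stayed lower after scaling, at -0.87. Csa6G217460, described as cation/H(+) antiporter 15, was uneven in the mutant, at 2.22, 4.35 and 6.11, and measured 6.63, 8.94 and 8.20 in wild type. Its log2 change of -0.84 (adjusted p = 0.0337 by limma) failed without mutant library 1 or 2 or wild type library 2 or 3 (adjusted p between 0.0243 and 0.0974).

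The 4 genes of the potassium transporter family, which includes high-affinity potassium importers, were all at lower means in the mutant. Of them 3 passed as lower (75.0%, against 74.3% of all genes), and after scaling none did. Csa1G532340, described as potassium transporter 1, measured 0.319, 0.396 and 0.329 in the mutant and 0.693, 1.83 and 4.31 in wild type. The wild type libraries spanned 6.22-fold, although none reached the mutant values. Its log2 change of -1.13 (SE 0.38, adjusted p = 0.0257 by limma) failed without any 1 mutant library or without wild type library 2 (adjusted p between 0.00226 and 0.0685). Csa3G835810, described as potassium transporter 8, was at 18.3, 18.5 and 18.3 in mutant libraries and at 20.3, 29.0 and 45.2 in wild type libraries. It was at the threshold (log2 change -0.67, adjusted p = 0.0497 by limma), turned to 0.22 after scaling, and kept its call in 1 leave-one-out fit, without wild type library 1 (adjusted p between 0.0053 and 0.11). Csa4G007060, described as potassium transporter 5, fell by 0.36 (adjusted p = 0.0175 by limma) and failed without mutant library 3 (adjusted p between 0.018 and 0.0565). Csa7G395260, described as the rice potassium transporter 20, did not pass (log2 change -0.49, adjusted p = 0.0623 by limma). Its values were 0.532, 0.272 and 0.389 in the mutant and overlapped the wild type values of 0.947, 0.449 and 1.65. Without wild type library 2 it passed, at -0.71 (adjusted p between 0.0192 and 0.155 over the fits that left out 1 library).

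All 5 transporters of phosphate, sulfate and silicon fell, where 74.3% of all genes did, with a median log2 change of -1.0. After scaling 1 was lower, 1 of the 5 changes was positive and the median was -0.17. Csa5G407060 is described as sulfate transporter 2.1, a low-affinity sulfate carrier of vascular tissue in Arabidopsis. It is listed at 0 in mutant library 1 and measured 0.0890 and 0.0251 in mutant libraries 2 and 3, against 0.943, 0.991 and 1.89 in wild type. Every wild type library was above every mutant library. It fell by 1.11 (SE 0.16, adjusted p = 0.00231 by limma) and was the gene of the group that passed after scaling, at -0.84. Csa3G182780, described as the silicon efflux transporter LSI2 of rice roots, measured 13.0, 14.4 and 18.8 in the mutant and 47.7, 32.9 and 36.5 in wild type. Its log2 change was -1.29 (SE 0.21, adjusted p = 0.00293 by limma), and its NR description instead names a putative transporter arsB.

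The PHO1 family exports phosphate, in Arabidopsis chiefly into the xylem. Csa5G471600, described as PHO1 homolog 3, measured 6.44, 5.48 and 5.23 in the mutant and 14.6, 9.35 and 13.9 in wild type. Csa5G637680, described as PHO1 homolog 9, measured 10.2, 11.6 and 10.9 in mutant libraries and 20.7, 16.5 and 21.4 in wild type libraries. In each, wild type library 2 was the lowest of its group and still above the mutant. Homolog 3 fell by 1.0 (SE 0.21, adjusted p = 0.00584 by limma), and homolog 9 fell by 0.78 (SE 0.16, adjusted p = 0.00562 by limma) with a change of 0.09 after scaling. Both carry an SPX domain in the table's Pfam annotation, a domain that senses inositol pyrophosphates. Csa3G135080, described as phosphate importer PHT1-7 (inorganic phosphate transporter 1-7), measured 0.752, 0.629 and 0.859 in the mutant and 1.39, 2.00 and 1.41 in wild type. It fell by 0.57 (SE 0.13, adjusted p = 0.00843 by limma) without overlap.

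Metal transporters included 2 rising and 6 falling genes of 8, where 18.4% of all genes rose and 74.3% fell. The median log2 change was -0.76, and after scaling there were 2 higher and 0 lower genes with a median of 0.02. Csa5G025920, described as vacuolar iron transporter 1, which stores iron in the vacuole, measured 37.6, 38.9 and 40.3 in the mutant and 28.2, 24.5 and 20.6 in wild type. The groups did not overlap, and the gene rose 1.59-fold (log2 change 0.66, SE 0.16, adjusted p = 0.00894 by limma). The 3 genes of the YSL family, which carry metals bound to the chelator nicotianamine, differed in direction. Csa3G654470 (YSL7) rose, to 4.82, 3.68 and 4.36 in mutant libraries, against 2.26, 2.75 and 2.90 in wild type. Csa3G238100 (YSL3) fell, to 3.93, 3.60 and 3.79 in the mutant, against 9.52, 9.06 and 4.99 in wild type. Csa2G404780 (YSL8) fell as well, to 0.328, 0.346 and 0.0797 in the mutant, against 0.616, 0.844 and 2.10 in wild type. None of the 3 overlapped between genotypes. Their log2 changes were 0.54 for YSL7 (adjusted p = 0.0188 by limma), -0.85 for YSL3 (adjusted p = 0.0161 by limma) and -0.75 for YSL8 (adjusted p = 0.024 by limma). Each lost its call when 1 of 2 libraries was left out: mutant library 1 or 3 for YSL7 (adjusted p between 0.0187 and 0.0625 over the fits), mutant library 2 or wild type library 2 for YSL3 (0.00167 to 0.053), and mutant library 1 or 3 for YSL8 (0.00772 to 0.0752).

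Both zinc transporters of the ZIP family fell, where 74.3% of all genes did. Csa4G618490, described as zinc transporter 5, measured 4.01, 4.51 and 3.85 in the mutant and 7.11, 7.45 and 10.1 in wild type. Csa6G182670, described as zinc transporter 6, measured 2.37, 1.84 and 2.35 in mutant libraries and 4.0, 4.16 and 5.73 in wild type libraries. Their log2 changes were alike, at -0.83 (SE 0.18, adjusted p = 0.0071 by limma) and -0.81 (SE 0.18, adjusted p = 0.00742 by limma), and neither passed after scaling, at -0.04 and -0.11. Csa7G009750, described as the magnesium transporter NIPA6, measured 7.29, 7.11 and 7.55 in the mutant and 18.3, 14.6 and 8.36 in wild type, where library 3 came close to the mutant. Its change of -0.76 (adjusted p = 0.0319 by limma) turned to 0.07 after scaling, and it kept its call in 1 leave-one-out fit, without wild type library 3 (adjusted p between 0.00226 and 0.0917). Csa1G526830, described as copper transporter 1, fell by 0.57 (adjusted p = 0.0244 by limma), which turned to 0.28 after scaling. It failed without any 1 mutant library or without wild type library 2 (adjusted p between 0.00983 and 0.0833).

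In the MATE family 3 of 5 genes rose, 1 fell and 1 did not pass, where 18.4% of all genes rose and 74.3% fell. The median log2 change was 0.89, or 1.26 after scaling, with the same numbers called. Csa2G049920 and Csa2G049930 are both described as DETOXIFICATION 16. The first measured 2.91, 3.62 and 2.84 in the mutant and 1.29, 0.513 and 0.788 in wild type. Its log2 change of 1.16 (SE 0.18, adjusted p = 0.00291 by limma) was the highest of the 58 genes with 1 added to each value. The second measured 1.13, 1.94 and 1.16 in mutant libraries and 0.437, 0.0892 and 0.367 in wild type libraries, a log2 change of 0.89 (SE 0.17, adjusted p = 0.00487 by limma). With a pseudocount of 0.1 the second had the larger change, 2.02, against 1.82 for the first. In both genes mutant library 2 was the highest and wild type library 2 the lowest. The same doubt about divided reads could make their separate values uncertain, but their sequences were not compared. Csa7G290540, described as DETOXIFICATION 54, measured 11.7, 10.7 and 10.3 in the mutant and 5.24, 4.40 and 6.30 in wild type, a 2.05-fold rise (log2 change 0.92, SE 0.17, adjusted p = 0.00455 by limma).

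The MATE genes that were not higher share another name. Csa4G099750 (DETOXIFICATION 27) and Csa5G598720 (DETOXIFICATION 29) both have NR descriptions naming TRANSPARENT TESTA 12, which in Arabidopsis carries flavonoids into the vacuoles of the seed coat. Csa4G099750 measured 0.513, 0.456 and 0.617 in the mutant and 1.89, 3.92 and 4.10 in wild type. It fell by 1.45 (SE 0.23, adjusted p = 0.00292 by limma), passed after scaling at -0.93, and had a wild type mean 6.25-fold its mutant mean. Csa5G598720 did not pass (log2 change -0.58, adjusted p = 0.0758 by limma), at 1.97, 2.57 and 2.24 in mutant libraries and 2.64, 3.28 and 6.35 in wild type libraries. Its groups did not overlap, but wild type library 3 was far above the others. Without wild type library 1 it did pass, with adjusted p between 0.0218 and 0.18 over the fits that left out 1 library.

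ABC transporters were split, with 5 of 9 rising and 4 falling, where 18.4% of all genes rose and 74.3% fell. The median log2 change was 0.48, and 0.94 after scaling, when 5 were higher and 0 lower. The rising genes were 3 of the 4 ABCC proteins, whose relatives move glutathione and other conjugates into the vacuole, together with an ABCB and an ABCG protein. Csa7G396440 (ABCC4) measured 13.1, 17.7 and 16.3 in the mutant and 8.74, 8.61 and 11.4 in wild type. Csa3G769610 (ABCC3) measured 3.11, 3.72 and 3.94 in mutant libraries and 1.85, 2.04 and 2.46 in wild type libraries. Csa3G127230, described as the putative ABCC15, measured 2.81, 2.46 and 2.66 in the mutant and 1.29, 1.80 and 1.58 in wild type. None of these groups overlapped, and the rises were between 1.64-fold and 1.70-fold. Their log2 changes were 0.66, 0.56 and 0.51 (adjusted p = 0.015, 0.0145 and 0.0128 by limma). The call was lost without mutant library 2 or 3 for ABCC4 (adjusted p between 0.00678 and 0.0633 over the fits that left out 1 library) and without mutant library 3 for ABCC3 (0.011 to 0.0506).

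The other rising ABC genes were as even. Csa1G574890, described as the putative ABCB8, measured 4.24, 3.70 and 4.22 in the mutant and 2.57, 2.58 and 2.00 in wild type (log2 change 0.58, SE 0.15, adjusted p = 0.0121 by limma). Csa1G118370, described as ABCG28, a protein of pollen tubes in Arabidopsis, measured 1.37, 1.34 and 1.51 in mutant libraries and 0.778, 0.711 and 0.689 in wild type libraries (log2 change 0.48, SE 0.10, adjusted p = 0.00553 by limma). Neither gene's groups overlapped.

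Of the falling ABC genes, Csa3G359120 (ABCC10) measured 3.13, 3.52 and 2.95 in the mutant and 4.96, 13.5 and 19.2 in wild type. Wild type library 1 lay much closer to the mutant than the other wild type libraries did. The log2 change was -1.52 (SE 0.43, adjusted p = 0.015 by limma), and it failed without wild type library 2 (adjusted p between 0.000507 and 0.0502). Csa6G434400 (ABCG15) measured 8.28, 9.61 and 11.6 in mutant libraries and 24.0, 19.6 and 17.8 in wild type libraries, a log2 change of -0.99 (SE 0.19, adjusted p = 0.00477 by limma). Csa3G774740 (ABCG34) fell by 0.51 (adjusted p = 0.037 by limma), which turned to 0.29 after scaling, and Csa5G505150 (ABCG16) fell by 0.28 (adjusted p = 0.0205 by limma). ABCG34 failed without any 1 mutant library or without wild type library 2 (adjusted p between 0.0208 and 0.124), and ABCG16 failed without mutant library 1 (0.0297 to 0.064).

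**Figure D3:**
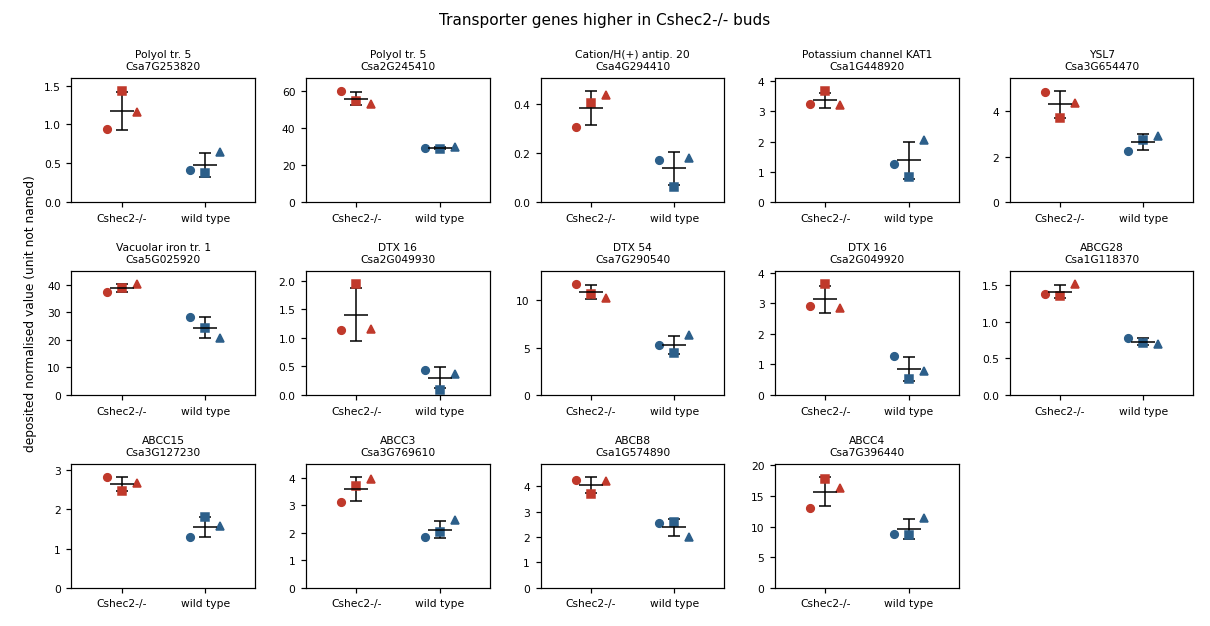
Deposited normalised value of the 14 transporter genes that rose, in each library, mutant left and wild type right; circles, squares and triangles are libraries 1, 2 and 3, and bars give the mean and SD of 3 libraries. In every panel the lowest mutant point lies above the highest wild type point, and the polyol transporter gene Csa2G245410 has the tightest wild type group, between 28.6 and 29.5.

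The 3 remaining transporters carry organic compounds and fell, where 74.3% of all genes did. Their median log2 change was -1.30, or -0.40 after scaling, when 1 was lower. Csa5G172890 is described as glycerol-3-phosphate transporter 1, whose Arabidopsis relative is induced by phosphate starvation. It measured 9.96, 8.05 and 8.63 in the mutant and 26.9, 61.2 and 53.5 in wild type. All wild type values were well above the mutant, with library 1 the lowest of them. Its log2 change of -2.21 (SE 0.31, adjusted p = 0.0019 by limma) was the lowest of the 58 genes with 1 added to each value, and it passed after scaling at -1.33. With a pseudocount of 0.1 it was -2.32, and Csa1G056920 (-2.82), Csa6G008070 (-2.71) and Csa5G407060 (-3.30) were lower. Csa1G186610, described as the tonoplast dicarboxylate transporter, which loads malate into the vacuole, measured 5.80, 5.83 and 6.92 in mutant libraries and 11.6, 14.0 and 17.9 in wild type libraries (log2 change -1.09, SE 0.19, adjusted p = 0.00397 by limma). Csa3G094510, described as organic cation/carnitine transporter 4, measured 13.4, 16.1 and 16.8 in the mutant and 17.5, 42.0 and 80.7 in wild type, where library 1 was close to the mutant. Its log2 change of -1.30 (SE 0.50, adjusted p = 0.04 by limma) kept its call in 1 leave-one-out fit, without wild type library 1 (adjusted p between 0.00154 and 0.106).

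The spread among libraries was wider in wild type than in the mutant. The SD of the log2 values was larger in wild type for 45 of the 58 genes (77.6%, against 78.5% of the table), with a median of 0.13 in the mutant and 0.27 in wild type. The highest wild type library was library 3 for 34 genes, library 1 for 17 and library 2 for 7, the same order as in the table, at 820, 613 and 156 genes. The wild type libraries spanned at least 2-fold for 21 genes, or 36.2%, against 31.2% of the table. The unevenness had more than one form. In potassium transporters 1 and 8, ABCC10, the inositol transporter and the carnitine transporter, library 3 was highest and library 1 lay nearest the mutant. In NIPA6, NPF6.1, YSL3 and the copper transporter, library 1 was highest and library 3 lay nearest the mutant. Whether the libraries differed in bud age, tissue or handling was not tested.

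**Figure D4:**
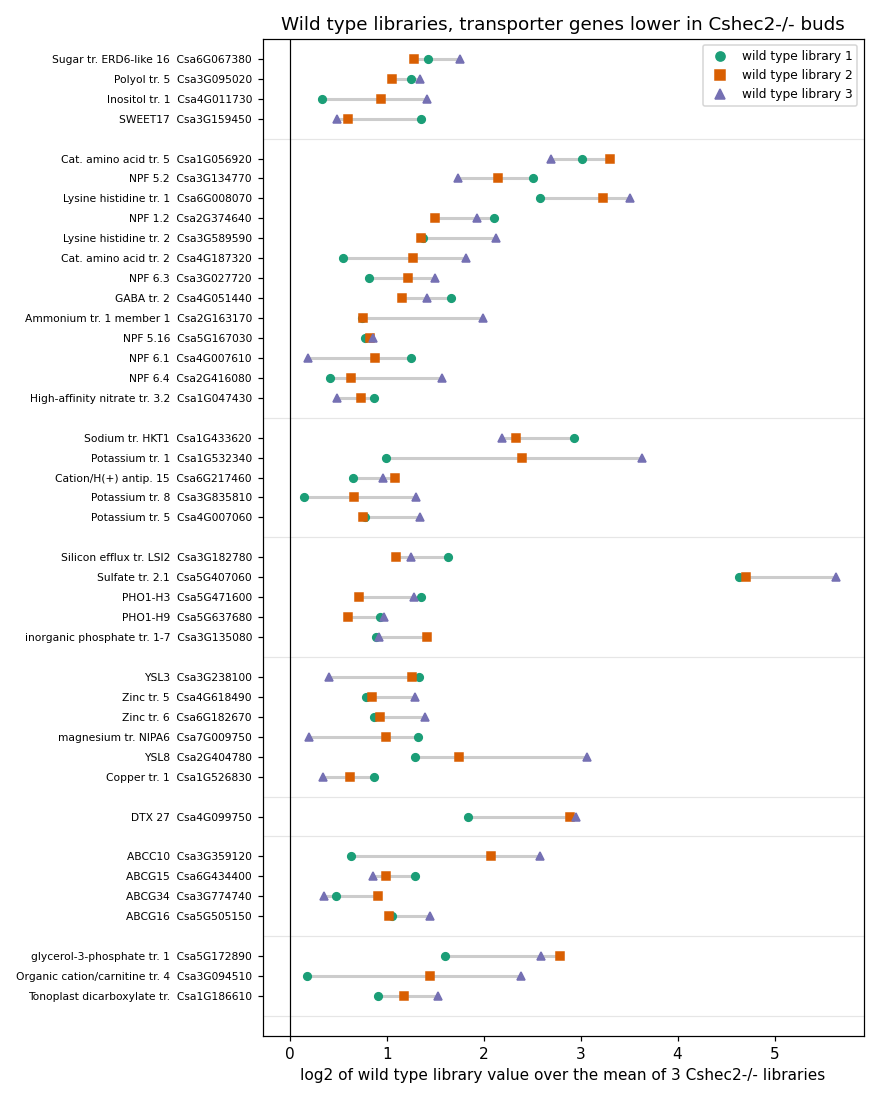
Value of each wild type library over the mean of the 3 mutant libraries, on a log2 scale, for the 41 transporter genes that fell; grey bars join the 3 wild type libraries of a gene. All points lie right of 0; the potassium transporter 1 gene Csa1G532340 spans 6.22-fold between wild type libraries, whereas NPF5.16 spans 1.06-fold. The sulfate transporter, farthest right, is listed at 0 in mutant library 1.

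In the table's Pfam annotation, which did not choose the members, all 9 rows with an ABC transporter domain, all 5 MatE rows, all 6 POT family rows, all 4 potassium transporter rows and all 3 OPT rows are among the 58 genes. The Major Facilitator domain occurs in 10 of them and in 14 rows of the table. Among the members it joined genes of both directions, 2 higher and 7 lower, where 18.4% of all genes rose and 74.3% fell. The 3 members with a transmembrane amino acid transporter domain and the 2 with an amino acid permease domain all fell. The table holds 6 and 3 rows with these domains, so some lie outside the 58 genes, and the directions of those were not counted by domain.

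Genes that act on the carried substrates, and other channels and carriers, were found by other words in the descriptions, and their counts stand beside 18.4% of all genes passing as higher and 74.3% as lower. In nitrogen assimilation 1 of 4 rose and 3 fell. Csa1G570100, an L-asparaginase, measured 6.28, 6.14 and 6.73 in the mutant and 12.1, 15.0 and 22.6 in wild type (log2 change -1.21, adjusted p = 0.00502 by limma). Its change of -0.36 after scaling did not pass (adjusted p = 0.203 by limma). Csa3G207890, the nitrite reductase, measured 38.8, 29.9 and 33.6 in mutant libraries and 72.2, 59.2 and 50.9 in wild type libraries (log2 change -0.81, adjusted p = 0.00772 by limma), and turned to 0.10 after scaling. The nitrate reductases differed in direction: Csa5G383350 rose by 0.29 (adjusted p = 0.0146 by limma) and Csa4G377160 fell by 0.46 (adjusted p = 0.0215 by limma), both from values near or below 1.

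All 8 genes of the phosphate economy list fell, where 74.3% of the table did, with a median log2 change of -0.89 against -0.77 for the table, and none passed after scaling (0 of 8, median -0.06). They were 3 SPX domain proteins, which are phosphate-dependent regulators, and 5 described as purple acid phosphatases, one of them as inactive, a family that releases phosphate from organic compounds. Csa6G108460, described as SPX domain-containing protein 3, measured 6.53, 5.54 and 6.46 in the mutant and 12.0, 12.7 and 15.5 in wild type, and Csa2G006260, described as SPX domain-containing protein 1, measured 18.5, 17.4 and 19.9 in the mutant and 37.0, 65.9 and 41.2 in wild type. Neither overlapped between genotypes.

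Sugar metabolism held 4 genes, of which 3 fell and 1 did not pass. Csa2G034660, described as alkaline/neutral invertase A, which splits sucrose, measured 11.2, 14.3 and 19.7 in mutant libraries and 66.1, 49.8 and 30.0 in wild type libraries (log2 change -1.59, adjusted p = 0.00575 by limma). Its change of -0.70 after scaling did not pass (adjusted p = 0.216 by limma). Csa6G080370, an invertase inhibitor, fell by 1.07 (adjusted p = 0.000878 by limma) and passed after scaling, at -0.69. In metal handling 1 of 4 rose and 3 fell, and among 21 other channels and carriers 3 rose, 16 fell and 2 did not pass. The 3 were both auxin transporter-like genes of the table, Csa2G264590 and Csa6G011040, at log2 changes of 0.83 and 0.81, and the aquaporin gene Csa5G623360 at 0.69. All other aquaporin genes of the list fell, by log2 changes from -1.78 for Csa3G826650 to -0.63 for Csa6G140850. Csa7G343330, described as ureide permease 2, a carrier of nitrogen-rich ureides and nucleobases, was among the lower genes, at 0.508, 0.282 and 0.361 in the mutant and 2.12, 2.85 and 2.43 in wild type (log2 change -1.32, adjusted p = 0.000848 by limma).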

How the data were processed

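One deposited table was used. Per the file headers its genes are those differing between mutant and wild type, each with a normalised expression signal per gene and library, an FDR (adjusted p-value) and a log2 fold change of the authors' comparison. Where entered, the largest deposited FDR is 0.04995 and the smallest absolute deposited log2 fold change is 0.585, or 1.5-fold. Among tools, the submitters' processing notes name HISAT2, HISAT and DESeq2, without saying which step used them. Not given in the sources used here are the genome build, the annotation, strandedness and the unit of the signal, so depth and its counting error are unknown. Per the labels' protocols, RNA was extracted with Trizol. The RefSeq gene table held 0 of the 58 identifiers, so no position or sequence is given.

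Genotypes were compared in R 4.3.3 by limma 3.58.1 on log2(value + 1) with a variance trend, no filter and no block, over all 1589 genes. The added 1 understates changes of low values. The fit was also run on simulated data, where most genes were left unchanged and both genotypes had the same spread. The real table differs in both respects, so that run does not vouch for the p-values given here. Alternatives were median-of-ratios scaling, no trend, pseudocounts of 0.1 and 0.5, a block by replicate number, a minimum mean of 1, leaving out each library, and an adjusted p of 0.01. The members, lists and tests were chosen with earlier results of these data known. Values in every library are given for each rising member, for up to 5 members of a group with the largest passing log2 change, for members that did not pass and for some others chosen for their role or after their values were seen. Up to 3 passing genes of each substrate list were eligible by p-value. The glycerol-3-phosphate transporter was placed with the organic compounds from its description. Figures used matplotlib 3.10.9.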

Additional observations from a re-analysis of the deposited data

How the results depend on the processing

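Transporters were refitted under 12 alternatives, of which a mean of at least 1 leaves out 8 of the 58, and the calls were also made at a stricter threshold. Pseudocounts of 0.1 and 0.5 changed no transporter's direction or call. At an adjusted p of 0.05, 10 higher and 8 lower genes passed in every one of the 12 refits that included them. Scaling by median of ratios left 8 lower transporters: 0 for sugars, 4 for nitrogen, 1 for monovalent cations, 1 for phosphate, sulfate and silicon, 0 for metals, 0 ABC, 1 MATE and 1 other. It left 1 lower gene in sugar metabolism, 0 in nitrogen assimilation, 1 in metal handling, 0 in phosphate economy and 2 among other channels and carriers. It turned 13 lower changes positive: 0.029 for Csa4G011730, 0.059 for Csa3G159450, 0.091 for Csa5G167030, 0.14 for Csa5G652250, 0.13 for Csa4G007610, 0.025 for Csa2G416080, 0.18 for Csa1G047430, 0.22 for Csa3G835810, 0.086 for Csa5G637680, 0.072 for Csa7G009750, 0.28 for Csa1G526830, 0.12 for Csa5G598720 and 0.29 for Csa3G774740. At an adjusted p of 0.01, 8 transporters were higher and 22 lower. The lower genes were 2 for sugars, 8 for nitrogen, 1 for monovalent cations, 5 for phosphate, sulfate and silicon, 2 for metals, 1 MATE, 1 ABC and 2 others. The higher genes included 1 monovalent cation, 1 metal and 1 ABC gene, with 0 in nitrogen assimilation. A mean of at least 1 left 1 higher sugar gene, 1 higher and 3 lower monovalent cation genes and 0 higher in nitrogen assimilation. Without the variance trend, 1 monovalent cation gene and 0 nitrogen assimilation genes were higher. Leaving out 1 library gave 27 to 40 lower and 10 to 14 higher transporters. Lower genes ranged from 2 to 4 for sugars, 2 to 5 for monovalent cations, 3 to 6 for metals, 1 to 2 for MATE and 2 to 4 for ABC, and higher genes from 1 to 2 for monovalent cations, 1 to 2 for metals and 3 to 5 for ABC. Apart from scaling and the smaller sets of genes or libraries, the cause was not tested.

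The replicate numbers were not taken as pairs. Deviations of same-numbered libraries correlated at -0.09, -0.04 and -0.18 over the genes, and those of differently numbered libraries at between -0.07 and 0.16. With 3 libraries per genotype, such values cannot decide whether libraries were paired. With the replicate number as a block, 13 transporters were higher and 38 lower, with 1 higher metal gene. Depth is unknown, so its limits could not be given.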
